A study of Homo sapiens with 10 samples.

Results

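The mitosis and G2/M genes are a list of 50 genes that are transcribed late in the cell cycle and act at entry into mitosis, on the spindle, at the spindle checkpoint, at anaphase or in cytokinesis. They were chosen by symbol, through the RefSeq accession of each array probe, without a threshold on their values, though with earlier results of these data known. A probe was matched for 49 of the 50, and UBE2C, an enzyme that hands ubiquitin to the anaphase-promoting complex, was not measured here. All 49 were well above background on all 10 arrays and were tested among 17379 genes. MEG-01 is a human megakaryoblastic leukemia cell line that carries the BCR-ABL fusion. In 5 independent experiments per group, cells were nucleofected with 200 nM of the precursor of miR-1225-3p or of a scrambled negative control precursor. Total RNA was taken at 24 hours and read on 1-colour expression arrays. Both groups were therefore transfected and carried the same fusion, although the source label of the scrambled arrays speaks of no treatment. A single dividing leukemia line with a large dose of a precursor is a limited model of a megakaryocyte, and no probe here measured miR-1225-3p itself.

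Cyclin-dependent kinase 1, bound to cyclin A or B, drives a cell into mitosis. The transcription factor FOXM1 and complexes of MuvB with B-MYB switch on the genes for these cyclins, for Polo-like and Aurora kinases, for motor proteins of the kinesin family and for the spindle checkpoint, so that their mRNAs peak together in G2 and mitosis. Kinetochores tie chromosomes to the spindle, and CDC20 then directs the anaphase-promoting complex to destroy securin and cyclin B. Megakaryocytes are known for a form of this cycle in which DNA is copied but the cell does not divide.

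The agent and the promoters of 6 members are printed first, since the values below differ among genes that share these sequence features. The mature microRNA, from RefSeq on GRCh38.p14, lies at chr16:2090195-2090216 on the minus strand, and its seed, bases 2 to 8, is in capitals.
hsa-miR-1225-3p: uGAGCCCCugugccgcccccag
It is 22 bases long, of which 17 are G or C. Matches to its seed in the members were not tested, since no target sequence was read here.

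The cell cycle homology region (CHR, TTTGAA or TTCGAA), which MuvB complexes bind, and the CCAAT box, which NF-Y binds, are marks of late cell cycle promoters. The windows below run from 150 bases before to 50 bases after a RefSeq start site on GRCh38.p14, in the direction of the gene, with each match to CHR, CCAAT or an E2F motif on either strand in capitals. PLK1, CDC20 and KIF20A are shown as members that fell, CCNB2 and NDC80 as members that did not pass the test, and NUF2 as the member that rose.
PLK1, chr16:23678739-23678938, plus strand: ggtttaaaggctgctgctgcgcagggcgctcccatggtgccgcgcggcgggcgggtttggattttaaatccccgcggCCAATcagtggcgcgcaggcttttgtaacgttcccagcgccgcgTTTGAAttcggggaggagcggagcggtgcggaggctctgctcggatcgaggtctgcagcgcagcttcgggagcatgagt
CDC20, chr1:43358831-43359030, plus strand: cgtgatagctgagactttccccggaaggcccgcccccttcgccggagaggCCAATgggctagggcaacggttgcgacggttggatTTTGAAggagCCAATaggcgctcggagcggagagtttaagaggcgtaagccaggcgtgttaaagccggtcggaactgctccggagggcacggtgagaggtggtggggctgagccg
KIF20A, chr5:138178962-138179161, plus strand: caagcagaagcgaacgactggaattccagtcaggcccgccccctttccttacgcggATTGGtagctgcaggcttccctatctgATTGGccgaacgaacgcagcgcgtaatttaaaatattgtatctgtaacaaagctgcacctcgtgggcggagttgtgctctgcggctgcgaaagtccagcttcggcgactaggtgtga
CCNB2, chr15:59104996-59105195, plus strand: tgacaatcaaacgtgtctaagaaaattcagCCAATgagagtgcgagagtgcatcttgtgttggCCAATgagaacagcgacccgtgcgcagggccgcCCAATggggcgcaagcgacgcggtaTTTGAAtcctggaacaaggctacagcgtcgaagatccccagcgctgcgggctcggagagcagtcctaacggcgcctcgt
NUF2, chr1:163321804-163322003, plus strand: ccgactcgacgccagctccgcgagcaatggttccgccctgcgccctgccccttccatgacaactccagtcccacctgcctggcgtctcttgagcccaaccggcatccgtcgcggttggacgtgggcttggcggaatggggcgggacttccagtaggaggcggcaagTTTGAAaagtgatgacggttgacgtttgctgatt
NDC80, chr18:2571407-2571606, plus strand: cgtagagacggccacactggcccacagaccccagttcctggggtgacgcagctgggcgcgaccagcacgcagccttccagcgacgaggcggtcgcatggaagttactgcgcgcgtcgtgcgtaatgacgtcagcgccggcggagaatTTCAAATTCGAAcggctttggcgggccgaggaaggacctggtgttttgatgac
PLK1 and CCNB2 both have TTTGAA with its first base 29 bases before the start, and PLK1 fell after transfection while CCNB2 did not pass. In NUF2 the match lies 16 bases past the start. The KIF20A window holds 2 CCAAT boxes, on the minus strand, and no CHR letters. NDC80 holds a TTTGAA on the minus strand that ends where a TTCGAA begins.

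In windows of 300 bases (250 before to 50 after the start), 42 of the 50 members matched a promoter, with 52 windows in all. A CHR match on either strand was found in 32 of these 42, or 76.2% (Wilson 95% interval 61.5 to 86.5, for counting error only), against 19.5% of all 27305 genes with a window. A CCAAT box was found in 81% of the members and in 39.7% of all genes. Both motifs were found together in 66.7% of the members against 9.02% of all genes. Pairs of CCAAT boxes were found in 50% of the members and 12.8% of all genes. The letters TTTGGCGC, TTTCGCGC or TTTCCCGC of E2F were found in 3 members, or 7.14%, and in 3.3% of all genes. CHR letters were present in 12 of the 17 members that fell and had a window and in 20 of the 25 others, so both sets held them in a majority. With CHR counted on the strand of the gene alone, the share was 66.7% against 11.8% of all genes, and 73.8% against 9.09% in windows from 100 bases before to 50 after the start.

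Slide 1 held 3 scrambled and 2 transfected arrays, and slide 2 held 2 scrambled and 3 transfected arrays. Between 42.0% and 61.2% of spots were well above background, and none was saturated. Levels below are log2 signals of each gene's brightest probe after cyclic loess scaling of the arrays, and a fold change or difference, on the same log2 scale unless given with the word fold after the number, is the miR-1225-3p mean minus the scrambled mean with the standard error of limma's moderated test. Adjusted p-values are Benjamini-Hochberg values over all 17379 genes, with 0.05 as the threshold. A single transfected array, miR-1225-3p replicate 5, stood nearer to the scrambled arrays than its 4 companions. On the 22 members that fell, the median distance from the scrambled mean was between -0.84 and -1.15 on miR-1225-3p arrays 1 to 4, -0.27 on array 5 and between -0.09 and 0.08 on the scrambled arrays. The results are therefore given with and without it.

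After transfection, 22 of the 49 members fell and 1 rose. The falls took in the kinases AURKA, PLK1 and NEK2 with TPX2, the activator of AURKA, and 5 of 8 kinesins, and were up to 3.39-fold for KIF20A, a kinesin of cytokinesis. Of the other kinases of mitosis on the list, TTK fell, by 0.58 on the log2 scale, and AURKB, BUB1 and CDK1 did not pass. The differences of CDK1 and its partner cyclin B1 were close to 0. NUF2, a part of the outer kinetochore, was the member that rose, by 1.77-fold. Members called lower made up 44.9% of those tested, where 18.1% of all genes were called lower. Members called higher made up 2.04%, where 17% of all genes were called higher. In either direction 46.9% of the members passed the test, against 35% of all genes. The median fold change of the members was -0.33 (log2), with 37 below 0, and that of all genes was -0.06. A fall of more than 2-fold was called for 9 members, or 18.4%, against 11.7% of all genes. The groups did not overlap in 13 members, each of them lower after miR-1225-3p, which is 26.5% of the members against 12.7% of all genes in either direction. In bulk RNA, fewer cells in G2 and mitosis and less of each mRNA per cell cannot be told apart.

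The count of members that fell depended on how the arrays were scaled. When each array was centred on its 75th percentile in place of cyclic loess, 11 members were lower and 10 higher, all-gene calls were 4562 higher and 2585 lower, and the median of all genes moved to 0.16. Quantile scaling gave 18 members lower and 1 higher, with all-gene calls of 3635 higher and 2511 lower and the median of all genes at 0.08. The 11 members called lower under all 3 of these scalings were KIF20A, CDC25B, TPX2, AURKA, PLK1, KIF4A, BUB3, CCNA2, KIF11, FOXM1 and TACC3, and NUF2 was called higher under all 3. CDK1, CCNB2, BUB1, MAD2L1, HMMR, CENPE, PTTG1, DLGAP5 and NDC80 passed the test as higher by the 75th percentile and not by the other scalings. Relative to the median of all genes, the members' median was -0.26 after cyclic loess, -0.31 after quantile scaling and -0.24 both by the 75th percentile and unscaled. The 75th percentile and unscaled values match by construction, since that centring shifts all genes of an array by the same amount. All 22 members called lower kept a negative fold change under each.

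**Figure D1:**
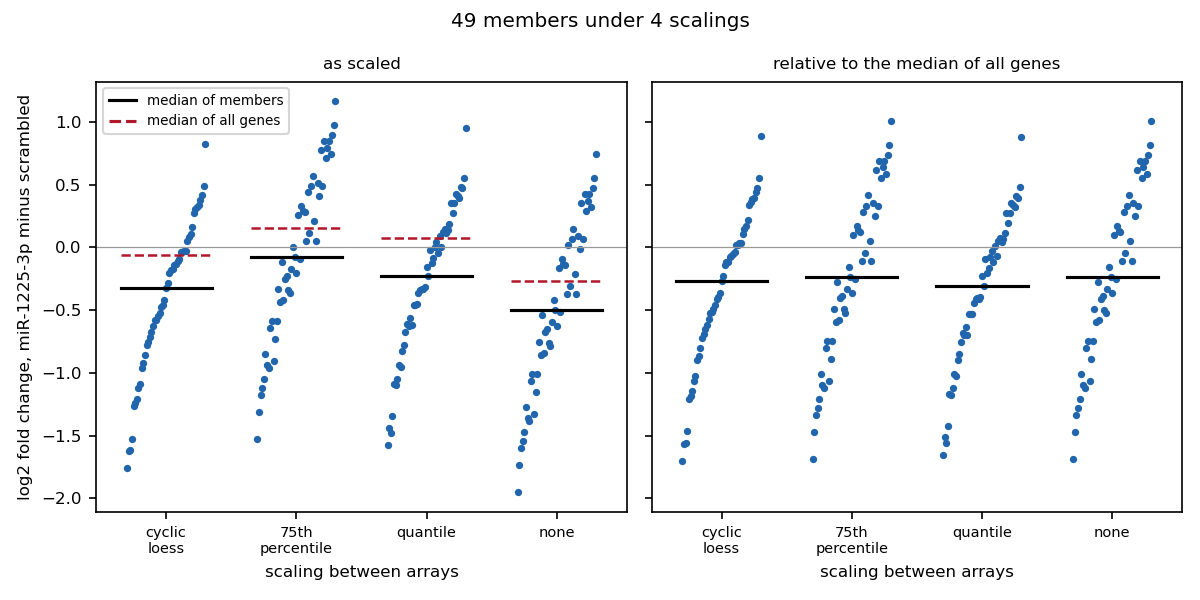
Log2 fold change of each of the 49 members (points, in the same order in every column) under cyclic loess, 75th percentile, quantile and no scaling between arrays, as scaled on the left and minus the median of all genes on the right. Black lines are the members' medians and dashed red lines those of all genes. The members' median shifted from -0.08 to -0.50 on the left and stayed between -0.24 and -0.31 on the right. On the right, the 75th percentile and unscaled columns match by construction.

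**Figure D2:**
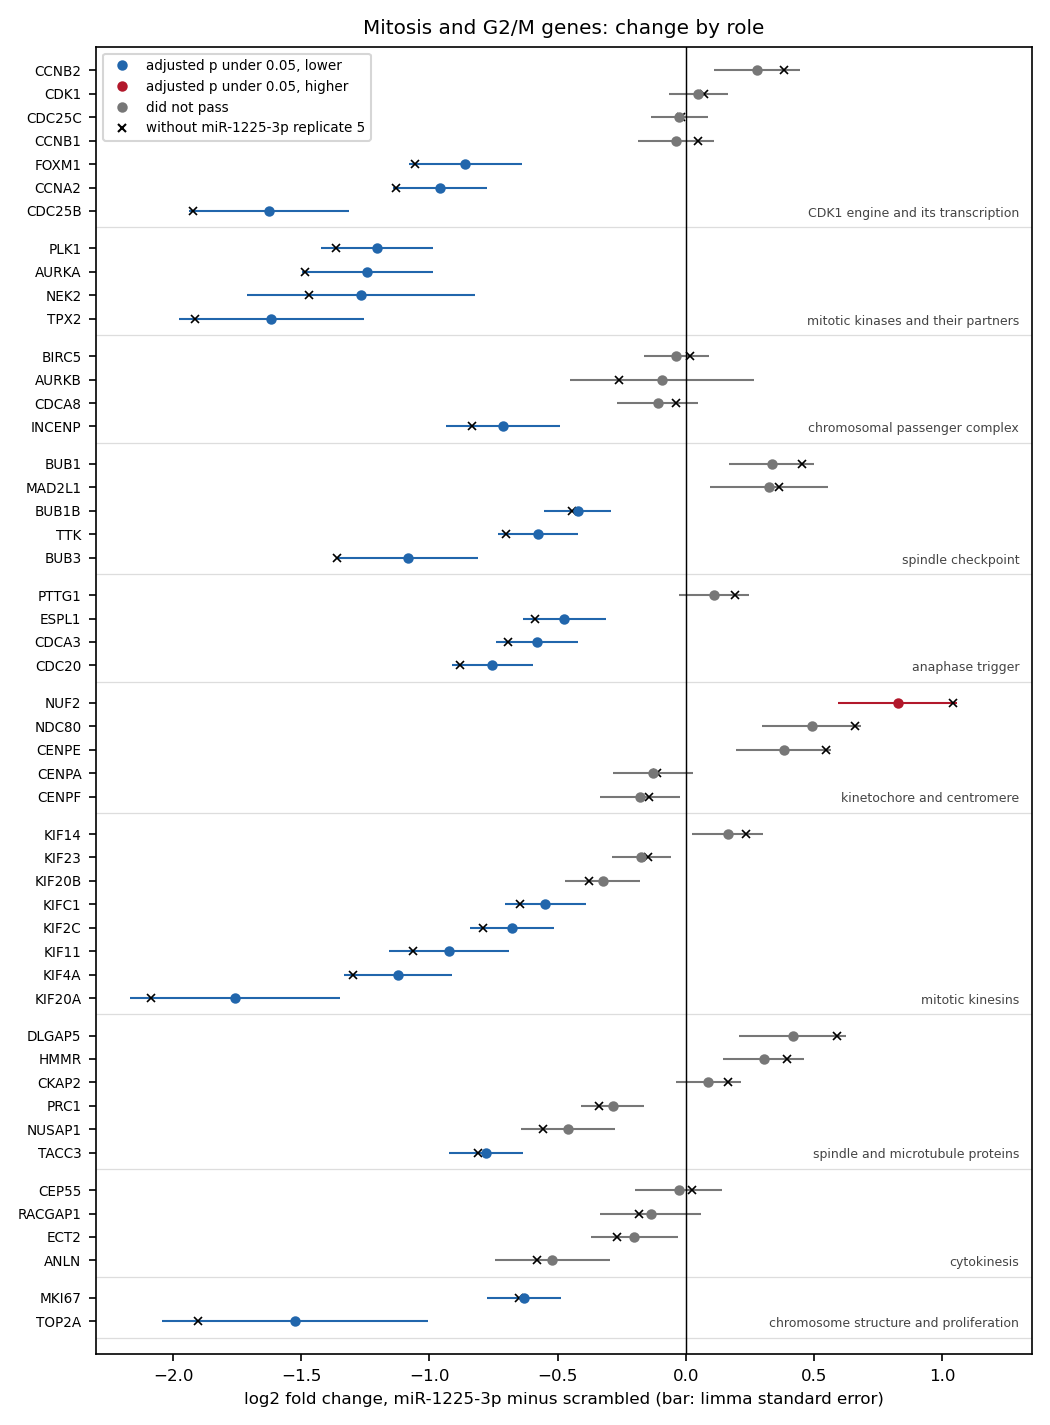
Log2 fold change of the 49 members by role, with limma standard errors over 5 arrays a group, and the value without miR-1225-3p replicate 5 as a cross. Blue points passed the test as lower, the red point as higher and grey points did not pass. AURKA, PLK1, NEK2 and TPX2 lie below -1.2, and the kinases TTK, AURKB, BUB1 and CDK1 lie at -0.58, -0.09, 0.34 and 0.05. The kinetochore genes reach from -0.18 to 0.83.

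Among the genes of the CDK1 engine and its transcription, 3 of 7 fell. CDC25B, a phosphatase that removes the inhibitory phosphates of CDK1, was at 8.37, 8.17, 7.82, 7.64 and 9.49 on miR-1225-3p arrays 1 to 5 and 9.77, 9.66, 10.06, 9.96 and 10.17 on scrambled arrays 1 to 5. Arrays 1 to 4 lay far below every scrambled array, array 5 lay just below the lowest of them, and the groups did not overlap. Its fold change was -1.63 ± 0.31 (adjusted p = 0.0138, limma), or 3.09-fold lower. The exact two-sided permutation test over the 10 arrays gave p = 0.00794, the smallest that 5 arrays against 5 allow. CCNA2, the cyclin of S phase and G2, was at 9.01, 9.15, 9.02, 9.09 and 9.93 on miR-1225-3p arrays 1 to 5 and 10.20, 10.16, 10.32, 10.15 and 10.18 on scrambled arrays 1 to 5. Arrays 1 to 4 of CCNA2 lay within 0.13 of each other and 1.00 log2 unit or more below the scrambled ones, while array 5 lay nearer to the latter. The change of CCNA2 was -0.96 ± 0.18 (adjusted p = 0.0138, limma) and -1.13 without array 5. FOXM1 itself changed by -0.86 ± 0.22 (adjusted p = 0.0203, limma).

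The core of the engine did not pass. CDK1 was at 11.04, 11.10, 10.84, 10.91 and 10.86 on miR-1225-3p arrays 1 to 5 and 10.77, 10.83, 10.88, 10.96 and 11.07 on scrambled arrays 1 to 5. The arrays of the 2 groups lay among each other, with a difference of 0.05 ± 0.12 (95% interval -0.21 to 0.31, adjusted p = 0.75, limma) and p = 0.516 by exact permutation. CCNB1, cyclin B1, was at 12.03, 12.29, 12.07, 12.56 and 11.80 on miR-1225-3p arrays 1 to 5 and 12.16, 12.23, 12.19, 12.20 and 12.17 on scrambled arrays 1 to 5. Transfected arrays of CCNB1 lay on both sides of a narrow scrambled range, and the difference was -0.04 ± 0.15 (95% interval -0.37 to 0.29, adjusted p = 0.843, limma; exact permutation p = 0.746). CDC25C, the other phosphatase of the pair, was at -0.03 and CCNB2 at 0.28 as log2 fold changes.

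AURKA, PLK1 and NEK2, and TPX2 with them, fell, whereas of the kinases placed with other roles TTK fell and AURKB, BUB1 and CDK1 did not pass. TPX2, which targets Aurora A to the spindle and activates it, was at 10.18, 9.74, 9.32, 8.65 and 10.96 on miR-1225-3p arrays 1 to 5 and 11.58, 11.40, 11.37, 11.26 and 11.31 on scrambled arrays 1 to 5. Every transfected array lay below every scrambled array, and array 4 was the lowest. The fold change of TPX2 was -1.62 ± 0.36 (adjusted p = 0.0155, limma; exact permutation p = 0.00794). AURKA, the Aurora kinase of centrosomes and spindle poles, was at 9.33, 9.20, 8.90, 8.75 and 10.27 on miR-1225-3p arrays 1 to 5 and 10.38, 10.47, 10.61, 10.65 and 10.55 on scrambled arrays 1 to 5. Its 2 groups did not overlap, although array 5 came within 0.12 of the lowest scrambled array. The difference was -1.24 ± 0.26 (adjusted p = 0.0141, limma; exact permutation p = 0.00794), or 2.37-fold. PLK1, Polo-like kinase 1, was at 7.78, 8.13, 7.98, 7.99 and 8.76 on miR-1225-3p arrays 1 to 5 and 9.83, 9.29, 9.40, 9.17 and 8.97 on scrambled arrays 1 to 5. Transfected arrays again lay below all scrambled ones, with array 5 the highest of them. PLK1 fell by 1.21 on the log2 scale (SE 0.22, adjusted p = 0.0136, limma; exact permutation p = 0.00794). NEK2, a kinase of centrosome separation, was at 8.70, 8.13, 6.90, 6.22 and 8.50 on miR-1225-3p arrays 1 to 5 and 9.02, 9.11, 8.92, 9.16 and 8.58 on scrambled arrays 1 to 5. Arrays 3 and 4 of NEK2 were low and array 1 lay inside the scrambled range, so that the groups overlapped. Its change of -1.27 ± 0.45 passed narrowly (adjusted p = 0.0491, limma; exact permutation p = 0.0159) and was lost in 8 of the 10 fits that left out 1 array.

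**Figure D3:**
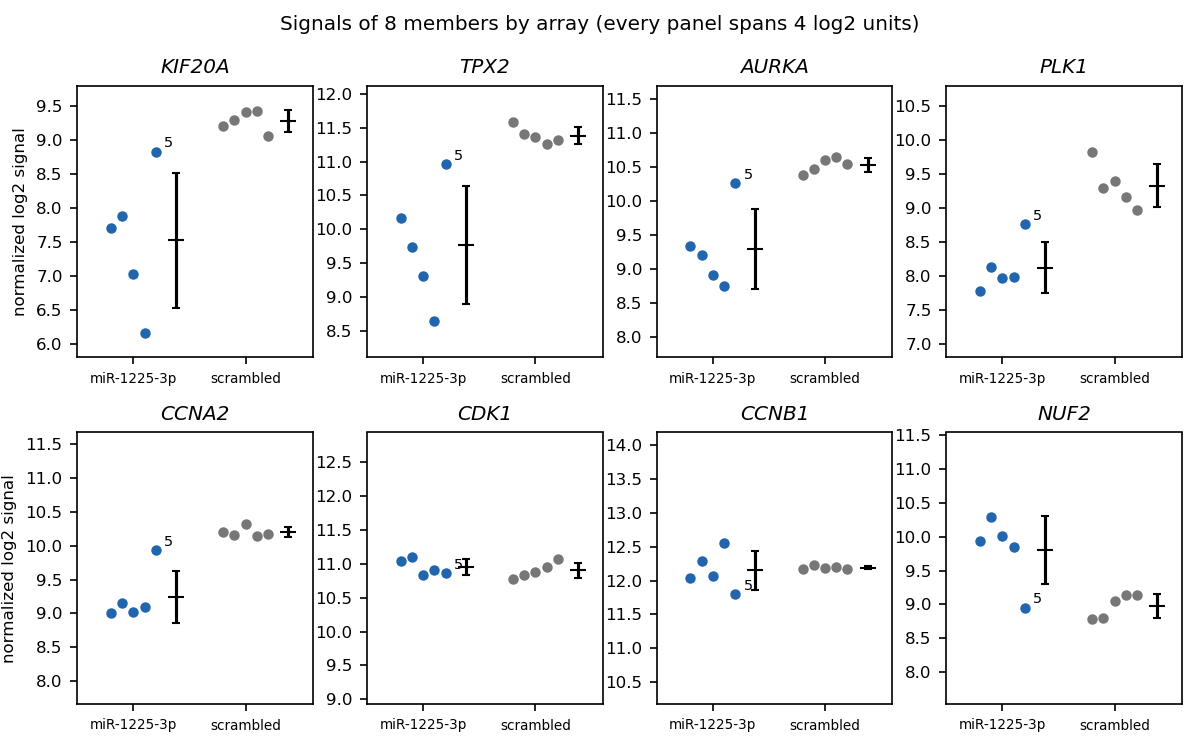
Normalized log2 signal of 8 members on the 5 miR-1225-3p (blue) and 5 scrambled (grey) arrays, with group mean ± SD as black bars and miR-1225-3p replicate 5 numbered. Each panel spans 4 log2 units, so that differences, not levels, compare between panels. KIF20A, TPX2, AURKA, PLK1 and CCNA2 lay lower on every transfected array, CDK1 and CCNB1 overlapped, and NUF2 was higher on arrays 1 to 4 alone.

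The chromosomal passenger complex, in which Aurora B works with INCENP, survivin (BIRC5) and borealin (CDCA8), had 1 of 4 members that fell. INCENP, the scaffold, changed by -0.71 ± 0.22 (adjusted p = 0.0347, limma). AURKB was at 7.88, 7.96, 7.95, 8.25 and 8.84 on miR-1225-3p arrays 1 to 5 and 7.31, 7.58, 8.73, 8.59 and 9.12 on scrambled arrays 1 to 5. The scrambled arrays of AURKB spread over 1.81 log2 units and enclosed every transfected array. The difference was -0.09 ± 0.36 (adjusted p = 0.844, limma; exact permutation p = 0.841), with a 95% interval -0.89 to 0.70. BIRC5 and CDCA8 had log2 fold changes of -0.04 and -0.11.

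Among the spindle checkpoint genes, which hold back anaphase until chromosomes are attached, 3 of 5 fell. BUB3 was at 9.92, 9.72, 9.63, 9.76 and 11.13 on miR-1225-3p arrays 1 to 5 and 11.30, 11.29, 11.06, 11.09 and 10.85 on scrambled arrays 1 to 5. Arrays 1 to 4 lay together, 0.93 or more below all scrambled arrays, and array 5 lay inside the scrambled range. The change of BUB3 was -1.09 ± 0.27 (adjusted p = 0.0194, limma) and -1.36 without array 5. TTK, also called MPS1, the kinase that starts the checkpoint signal, changed by -0.58 ± 0.16, and BUB1B, or BUBR1, by -0.42 ± 0.13 (adjusted p = 0.0235 and 0.0334, limma). MAD2L1, which binds and blocks CDC20, and BUB1, a kinase of the kinetochore, did not pass and had positive fold changes of 0.33 and 0.34.

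Of the 3 measured genes that set off anaphase, CDC20 and ESPL1 fell and PTTG1 did not pass. CDC20, the activator of the anaphase-promoting complex, changed by -0.75 ± 0.16, and its arrays did not overlap between groups (adjusted p = 0.0142, limma). CDCA3, listed with them but known as a trigger of mitotic entry, changed by -0.58 ± 0.16. ESPL1, separase, which cuts cohesin, changed by -0.47 ± 0.16 (adjusted p = 0.0447, limma). PTTG1, securin, its inhibitor, had a fold change of 0.11.

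The 2 highest fold changes on the list belonged to kinetochore genes, of which 1 of 5 passed. NUF2 was at 9.94, 10.28, 10.02, 9.84 and 8.95 on miR-1225-3p arrays 1 to 5 and 8.79, 8.79, 9.05, 9.14 and 9.13 on scrambled arrays 1 to 5. Arrays 1 to 4 lay above every scrambled array, and array 5 lay inside the scrambled range. The rise was 0.83 ± 0.23 (adjusted p = 0.0256, limma; exact permutation p = 0.0317), and 1.04 without array 5, but it was lost in 6 of the 10 fits that left out 1 array. NDC80, which forms a rod with NUF2 that grips microtubules, had 0.49 ± 0.19 (adjusted p = 0.0677, limma) and CENPE, a kinesin that moves chromosomes, had 0.38 ± 0.19 (adjusted p = 0.124, limma). CENPA, the histone of centromeres, and CENPF were at -0.13 and -0.18.

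Of the 8 mitotic kinesins, 5 fell. KIF20A was at 7.71, 7.88, 7.02, 6.16 and 8.83 on miR-1225-3p arrays 1 to 5 and 9.20, 9.30, 9.41, 9.43 and 9.05 on scrambled arrays 1 to 5. Arrays 3 and 4 were the lowest, array 5 the highest, and every transfected array lay below every scrambled one. This was the largest fall among the members, with -1.76 ± 0.41 (adjusted p = 0.0165, limma; exact permutation p = 0.00794). KIF4A, a motor of chromosome arms, was at 7.25, 7.27, 7.21, 6.72 and 7.99 on miR-1225-3p arrays 1 to 5 and 8.57, 8.46, 8.48, 8.27 and 8.26 on scrambled arrays 1 to 5. Its groups did not overlap, and its change was -1.12 ± 0.21 (adjusted p = 0.0136, limma; exact permutation p = 0.00794). KIF11, which pushes spindle poles apart, KIF2C, which shortens microtubules, and KIFC1, which draws poles together, changed by -0.92 ± 0.23, -0.68 ± 0.16 and -0.55 ± 0.16 (adjusted p = 0.0198, 0.0179 and 0.0273, limma). KIF23 and KIF14, motors of the midzone, did not pass, with -0.17 and 0.16. KIF20B was at 7.27, 6.92, 7.29, 7.59 and 7.53 on miR-1225-3p arrays 1 to 5 and 7.57, 7.71, 7.58, 7.58 and 7.79 on scrambled arrays 1 to 5. The groups of KIF20B overlapped on its brightest probe, with a change of -0.33 ± 0.15 (adjusted p = 0.104, limma; exact permutation p = 0.0317).

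Of the 6 spindle and microtubule proteins, TACC3, a microtubule-binding partner of Aurora A, fell by 0.78 on the log2 scale (SE 0.14, adjusted p = 0.0136, limma). PRC1, which bundles midzone microtubules, lay lower on every transfected array. The margin was slight, with miR-1225-3p replicate 5 at 12.566 and the lowest scrambled array at 12.567. Its change of -0.29 ± 0.12 did not pass (adjusted p = 0.0874, limma, and p = 0.00794 by exact permutation). NUSAP1, CKAP2, HMMR and DLGAP5, which bind and stabilize spindle microtubules, did not pass and had fold changes of -0.46, 0.09, 0.30 and 0.42. None of the 4 cytokinesis genes passed, with ANLN, anillin, the lowest at -0.52 ± 0.22 (adjusted p = 0.0895, limma), ECT2, which starts the cleavage furrow, at -0.20, its partner RACGAP1 at -0.14 and the midbody protein CEP55 at -0.03.

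Both genes kept as marks of chromosome structure and proliferation fell. TOP2A, the topoisomerase that untangles sister chromatids, was at 9.91, 9.44, 8.94, 7.38 and 10.80 on miR-1225-3p arrays 1 to 5 and 10.44, 10.70, 11.07, 10.95 and 10.94 on scrambled arrays 1 to 5. Array 4 was 1.55 log2 units below the next, array 5 lay inside the scrambled range, and the groups overlapped. Its change of -1.52 ± 0.52 passed (adjusted p = 0.0444, limma; exact permutation p = 0.0238) but was lost in 9 of the 10 fits that left out 1 array. MKI67, the Ki-67 protein of dividing cells, was at 8.08, 7.99, 7.60, 7.89 and 7.99 on miR-1225-3p arrays 1 to 5 and 8.81, 8.69, 8.37, 8.47 and 8.37 on scrambled arrays 1 to 5. Here array 5 lay with its companions, and the groups did not overlap. The difference was -0.63 ± 0.15 (adjusted p = 0.0161, limma; exact permutation p = 0.00794).

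**Figure D4:**
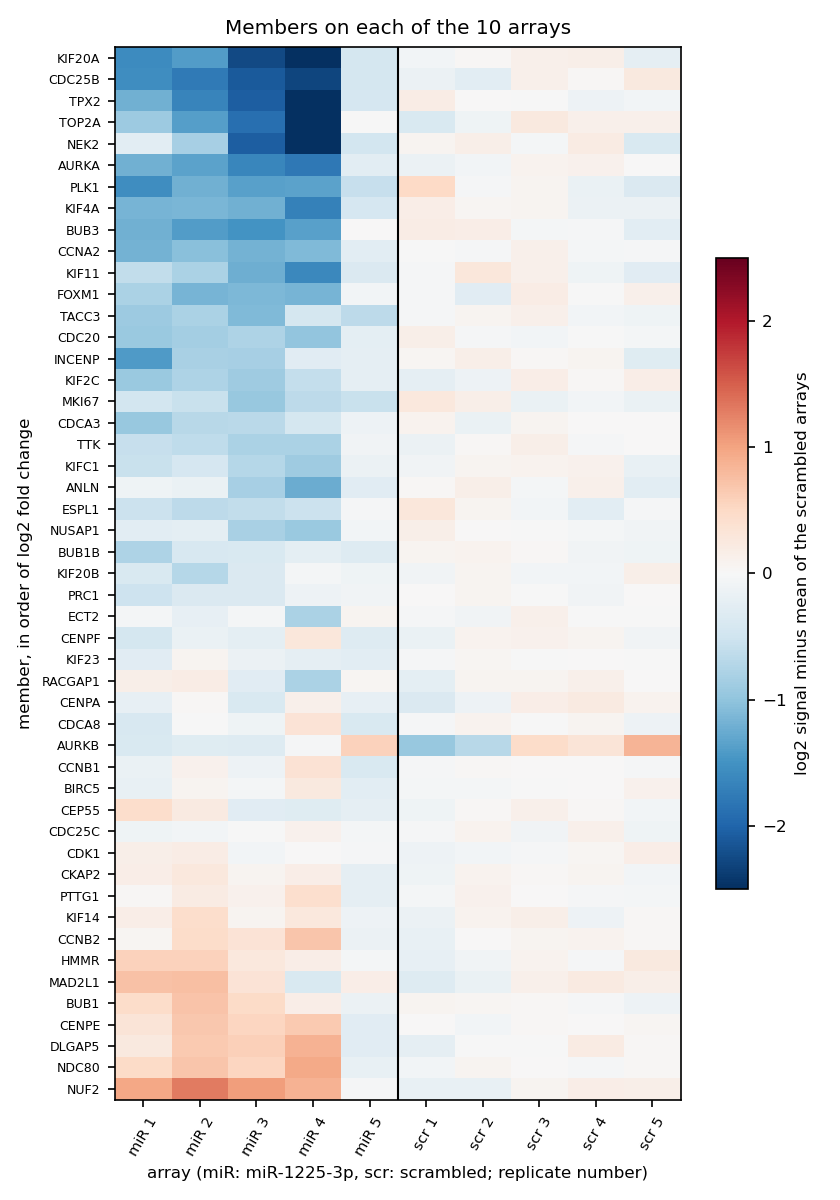
Log2 signal of each of the 49 members on each array, minus its mean over the 5 scrambled arrays, with members in the order of their fold change and blue for lower. The 22 members that fell are blue on miR-1225-3p arrays 1 to 4 in almost every case, and array 5 is paler, with a median distance of -0.27.

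Replicate 5 of the transfected arrays was the highest of the 5 in 18 of the 22 members that fell. It lay within or above the scrambled range in 9 of them and below it in 13, whereas the other 4 arrays all lay below the scrambled range in 20. The SD of the transfected group was the larger in 21 of the 22, with a median of 0.42 against 0.16 (n = 5 each). Without replicate 5, 25 members were lower, or 51%, against 29% of all genes, and 7 were higher, or 14.3%, against 26.4%. All 22 remained among them. NUSAP1, KIF20B and PRC1 then passed as lower, and CCNB2, HMMR, BUB1, CENPE, DLGAP5 and NDC80 as higher.

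Leaving out any 1 of the other arrays lowered the count. Between 11 and 18 of the 22 falls passed without 1 of miR-1225-3p arrays 1 to 4, with 11 left without replicate 3 and 12 without replicate 2. Calls over all 17379 genes dropped too, from 3144 lower to 967 without replicate 3 and 916 without replicate 2. Between 14 and 19 of the 22 falls passed without 1 scrambled array, with 15 left without replicate 2 and 14 without replicate 3 or 4. Over all genes, between 1413 and 2388 were then called lower. The falls of CCNA2, CDC25B, AURKA, TPX2, PLK1, CDC20, KIF2C, KIF4A, KIF20A, TACC3 and MKI67 passed in all 10 such fits. FOXM1 and BUB3 were lost without miR-1225-3p replicate 2 or 3, and KIF11 without replicate 3. TTK, CDCA3, INCENP, BUB1B, KIFC1, NEK2, TOP2A and ESPL1 were lost in 5 to 9 of the 10, with adjusted p-values by limma of up to 0.111.

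Slides were compared next, since each held arrays of both groups. All 22 members that fell had a negative fold change within each slide, with a median of -0.97 on slide 1 and -0.78 on slide 2. The 22 were picked as lower over both slides together, so these signs and medians are largely set by that choice. All 49 members, listed without a threshold on their values, had a median of -0.42 on slide 1 and -0.30 on slide 2. The medians of all genes were -0.05 on slide 1 and -0.07 on slide 2. KIF20A was at -1.43 and -2.03, TPX2 at -1.46 and -1.69, PLK1 at -1.45 and -0.99 and NUF2 at 1.12 and 0.64 on slides 1 and 2. Of the 22, 15 passed within slide 1, where 2426 of all 17379 genes were called lower. Within slide 2 limma called no gene at all. On that slide 4 of the 49 members and 1220 of the 17379 genes were at an unadjusted p under 0.05. With slide as a block, 19 of the 22 passed and 1 member was higher, beside 2679 genes lower and 2599 higher.

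Related members were set side by side within each array, where a factor that is the same for all genes of an array cancels. The cyclic loess correction depends on signal level and does not cancel between members of unlike brightness. The pairs were picked after the values were seen, so no test is given. PLK1 minus CDK1 was lower on every transfected array than on any scrambled array, by a mean of 1.25 log2 units, with miR-1225-3p replicate 5 at the edge of the scrambled range. CDC25B minus CDC25C was lower likewise, with a difference of -1.60. CCNA2 minus CCNB1 differed by -0.92 and BUB3 minus BUB1 by -1.42, with replicate 5 inside the scrambled range or above it in both. KIF20A minus KIF20B differed by -1.43 and AURKA minus AURKB by -1.15, and in both the groups overlapped by scrambled array 5 alone. TPX2 minus AURKA and NUF2 minus NDC80, where both fold changes had the same sign, differed by -0.37 and 0.34.

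**Figure D5:**
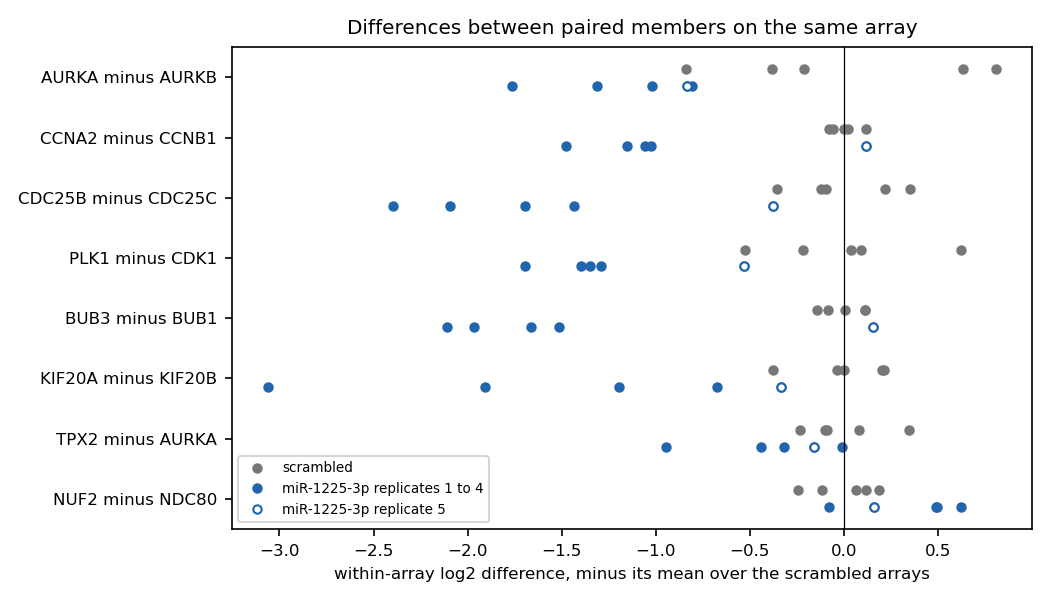
Within-array log2 difference between 2 members, minus its mean over the scrambled arrays, for 8 pairs. Blue points are miR-1225-3p arrays 1 to 4, open points array 5 and grey points scrambled arrays. In 6 of the 8 pairs, from AURKA minus AURKB to KIF20A minus KIF20B, the mean difference lay between -0.92 and -1.60.

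The change also differed between probes of 1 gene. Of the 11 members with more than 1 probe kept, which have 12 dimmer probes besides the brightest, 11 dimmer probes had a lower fold change than the brightest, and 11 had the same sign. The median of dimmer minus brightest over all 12 was -0.44. Over all 2501 genes with a symbol and several kept probes, 63.1% of 2964 dimmer probes were the lower, and the median of dimmer minus brightest over all 2964 was -0.24. KIF20B had the widest gap, at -0.33 on the brightest probe and -1.42 on the other, which was well above background on 4 of 10 arrays. PLK1 was at -1.21 and -1.77, KIF4A at -1.12 and -1.77, BUB3 at -1.09 and -1.32 and MKI67 at -0.63, -0.85 and -0.74. NEK2 went the other way, at -1.27 and -0.41. CENPF, KIF20B and KIF23 passed as lower on a dimmer probe only.

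Other genes of mitosis, from a list of 75 with 71 tested, had 21 higher (29.6%, against 17% of all genes) and 8 lower (11.3%, against 18.1%), with a median of 0.19. The split was 34 higher and 7 lower by the 75th percentile and 0 and 2 with no scaling. It was 2 and 3 without miR-1225-3p replicate 2 and 3 and 3 without replicate 3. All 17379 genes were split 4562 higher and 2585 lower by the 75th percentile and 174 and 1092 with no scaling. Without replicate 2 all genes were split 1213 and 916, and without replicate 3, 1285 and 967. Subunits of the condensin and anaphase-promoting complexes were among those that rose, with NCAPG at 1.12, ANAPC1 at 1.06 and ANAPC4 at 0.98. ZWILCH, of the kinetochore, rose by 1.13 and KIF15, a spindle kinesin, by 0.91. WEE1, the kinase that restrains CDK1, fell, at -1.16, as did GTSE1 at -1.47, the kinesin KIF22 at -1.14 and NUMA1 at -1.74, which was well above background on 3 of 5 transfected arrays. SPC24, of the NDC80 complex, was not well above background on any transfected array and was lower by about 3.06-fold or more (adjusted p = 0.0161, limma), though its groups overlapped. That figure sets the scrambled mean against the mean of the lowest signal well above background on each transfected array, and is an estimate, not a strict limit.

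None of the 12 MuvB, B-MYB and DREAM genes, whose products control the promoters of the members, passed by limma, against 35% of all genes. Of the 12, 3 had an unadjusted p under 0.05, as did 8533 of all 17379 genes, and the methods' t-test called 1. Without miR-1225-3p replicate 5, 5 of them passed, or 41.7%, against 55.4% of all genes. Of 49 DNA replication and S phase genes tested, 18 were higher (36.7%, against 17% of all genes) and 7 lower (14.3%, against 18.1%), with a median of 0.28. The split was 29 higher and 5 lower by the 75th percentile and 0 and 2 with no scaling. For all genes it was 4562 and 2585 by the 75th percentile and 174 and 1092 with no scaling. RFC4, of the clamp loader, rose by 1.06, GMNN by 0.92, MCM6 by 0.88 and CDC45 by 0.82. RRM2, a subunit of ribonucleotide reductase, was at -3.04 and well above background on 1 of 5 transfected arrays. POLD3 was at -2.40, POLA2 at -1.77, FEN1 at -1.50 and POLE at -1.02, of which FEN1 was well above background on every array and the others on 2 or 3 of the 5 transfected ones.

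Cell type markers were read beside these genes. Of those tested, 5 of 10 megakaryocyte, 1 of 3 T and B cell and 2 of 4 monocyte markers passed. Among epithelial markers 1 of 3 passed and among fibroblast markers 0 of 2, where 35% of all genes passed. Of 14 megakaryocyte markers, 10 were tested. ITGA2B, FLI1, KIT and NFE2 fell, by 1.39, 0.60, 0.53 and 0.43 on the log2 scale, and RUNX1 rose by 0.46. Their summed signal was 10256 to 11494 on the transfected and 12624 to 14323 on the scrambled arrays. PF4 and VWF were not well above background on enough arrays to be kept, so these defining markers of a mature megakaryocyte were not detected, and GP1BB was not matched. Of the monocyte markers 4 of 6 were tested, and S100A8 and FCGR3A rose, with summed signals of 288 to 752 on transfected and 289 to 377 on scrambled arrays. EPCAM rose among the 3 tested of 6 epithelial markers (8730 to 13441 against 7957 to 9097), while KRT8 at -0.47 and KRT18 at 0.04 did not pass. CD3E rose among the 3 tested of 6 T and B cell markers (3950 to 6061 against 5046 to 11006). It was well above background on 3 transfected arrays and 1 scrambled array. Of the other T and B cell markers tested, CD3D was at -0.13 and CD79A at -1.47 (adjusted p = 0.0626, limma), and CD79A passed as lower without miR-1225-3p replicate 5, at -1.85. Neither of the 2 tested of 6 fibroblast markers passed by limma (36 to 100 against 45 to 69; 1 at an unadjusted p under 0.05). Defining markers such as S100A9, MS4A1, CDH1, KRT5, COL3A1 and DCN were not kept, and LYZ was not matched. Their part in the change of the mitotic genes was not tested.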

How the data were processed

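Total RNA of 5 miR-1225-3p and 5 scrambled transfections was labelled with Cy3 and hybridized to 1-colour Agilent arrays. Per the file headers and the submitters' processing notes the scanner files come from Agilent Feature Extraction 10.7.3.1. They hold a background-subtracted intensity for each spot, deposited by the authors without scaling between arrays. A table of the authors' processed log2 values was deposited too and served as an alternative; over probes it correlated with the values used here at 0.846 to 0.985 per array.

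As in the study's methods, log2 intensities of 58717 non-control spots were scaled by cyclic loess (3 iterations). Spots marked as outliers (0.627%) were left out, which left every member with a value on all 10 arrays, and repeat spots were averaged. A filter then kept the 20648 probes whose signal cleared background on 3 or more arrays in 1 group, and the brightest stood for its gene. Genes were named by matching probe accessions to RefSeq (GRCh38.p14). Groups were compared by limma 3.58.1 in R 4.3.3 with Benjamini-Hochberg adjustment, after tests on simulated data, and single members also by a two-sided exact permutation test, whose smallest p is 0.00794. The methods' t-test and other scalings, filters, slides and left-out arrays were alternatives. Promoter windows came from RefSeq, with Wilson intervals from scipy 1.17.1.

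The members, the lists and the roles were chosen with earlier results of these data known. Values on every array are given for CDK1, CCNB1, PLK1, AURKB and MKI67, for the 8 largest changes called in each direction and for members whose probes differ by over 1. CCNA2 and BUB3 were added after their values were seen. Of the other lists the 5 largest called changes in each direction are named, except items that are not reported here. The number of arrays limits the precision. The design text speaks of 5 independent experiments per group. Same-numbered arrays of the 2 groups were not treated as paired. The labels do not say whether they were, and correlations of their deviations, between -0.40 and 0.07, cannot settle it with 5 arrays per group.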

Additional observations from a re-analysis of the deposited data

Results flagged for a closer look

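Each member was examined in each group of 5 arrays for a single array far from the other 4 (Dixon's gap, 95% critical value 0.71), and 6 of 98 groups had one, where chance gives 4.9. In 3 of the 6 the array was miR-1225-3p replicate 5, which lay above its companions: CCNA2 at 9.93 (the others at 9.01 to 9.15), BUB3 at 11.13 (9.63 to 9.92) and ESPL1 at 9.24 (8.60 to 8.73), all as normalized log2 signals. The other 3 were scrambled arrays. CCNA2 was at 10.32 on replicate 3 (10.15 to 10.20), INCENP at 8.83 on replicate 5 (9.15 to 9.26) and CDCA3 at 9.44 on replicate 2 (9.62 to 9.69).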

How the results depend on the processing

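No member called higher or lower changed sign under any of the 26 alternatives tried for each. Some of these, such as the methods' t-test, limma's trend and robust setting and a replicate block, alter only the error estimate. Under those the sign of a member could not change. Over all 49 members and alternatives, 1016 of 1274 values kept their direction and their side of the threshold, 171 lost the call, 40 gained one and 47 changed sign, all of the last in members that had not passed. With no scaling between arrays, calls dropped to 1266 genes, 1 member (KIF20A), 2 other mitotic genes and 2 DNA replication genes. Without the filter on dim probes they were 3411 genes, 16 members, 14 other mitotic genes and 10 DNA replication genes. Array weights gave 11757 genes, 36 members (10 higher, 26 lower), 53 other mitotic, 39 DNA replication and 7 MuvB and DREAM genes. Within slide 1, 15 DNA replication genes and 1 MuvB or DREAM gene passed. Within slide 2, with 3 against 2 arrays, limma called 0 genes, 0 members, 0 other mitotic and 0 DNA replication genes, and 1220 genes had an unadjusted p under 0.05. MuvB and DREAM calls were 2 by the 75th percentile and 1 each by the mean of probes, the methods' t-test and limma's trend and robust setting. The members' median was -0.08 by the 75th percentile, -0.23 by quantile scaling, -0.50 with no scaling, -0.46 by the mean of probes and -0.42 within slide 1. Members called by the methods' t-test were 21 of 49, and 4677 of all genes.

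The arrays share replicate numbers, and the labels do not say whether these pair them. A replicate block left limma with 0 genes, 0 members, 0 other mitotic and 0 DNA replication genes, where 24 members and 7474 genes had an unadjusted p under 0.05.

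Leaving out 1 array at a time, calls ranged from 2129 to 9624 genes, from 11 to 32 members, from 5 to 44 other mitotic genes, from 0 to 5 MuvB and DREAM genes and from 7 to 35 DNA replication genes, each highest without miR-1225-3p replicate 5. The members' median ranged from -0.38 to -0.27. Members whose sign changed in these fits ranged from -0.33 to 0.12 (AURKB), from -0.141 to 0.047 (CCNB1), from -0.108 to 0.017 (BIRC5), from -0.145 to 0.041 (CEP55), from -0.059 to 0.0079 (CDC25C) and from -0.220 to 0.025 (RACGAP1).

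Log2 fold changes of members that had not passed and changed sign were as follows. By the 75th percentile CCNB1 was at 0.49, CDC25C at 0.054, AURKB at 0.115, BIRC5 at 0.57, CDCA8 at 0.44, CENPA at 0.051, CENPF at 0.33, KIF23 at 0.29, PRC1 at 0.26, RACGAP1 at 0.28 and CEP55 at 0.21. By quantile scaling CCNB1 was at 0.0048, CDC25C at 0.12, AURKB at 0.089, BIRC5 at 0.12, CENPA at 0.043, RACGAP1 at 0.0027 and CEP55 at 0.15. With no scaling CCNB1 was at 0.067, BIRC5 at 0.15, CDCA8 at 0.019 and CKAP2 at -0.014. With normexp CDC25C was at 0.028. In the authors' table CDK1 was at -0.025 and CEP55 at 0.17. With outlier spots kept CEP55 was at 0.21, and by the mean of probes CKAP2 was at -0.25. With array weights CCNB1 was at 0.046, BIRC5 at 0.020, RACGAP1 at 0.00068 and CEP55 at 0.11. With slide as a block CEP55 was at 0.028. Within slide 1 RACGAP1 was at 0.24 and CEP55 at 0.35, and within slide 2 CDK1 was at -0.022, AURKB at 0.26 and CKAP2 at -0.078. The cause of these shifts was not tested.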
